A study of Rattus norvegicus with 6 samples.

Results

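The potassium channel genes were taken as every protein-coding row of the count table whose symbol began with Kcn, followed by letters and a number, leaving out Kcne1 and Kcnq1. This gave 89 genes of the 32883 in the table, in 14 subfamily groups. They were read in the vestibular sensory epithelium of Long-Evans rats, where each library held the pooled 2 utricles and 6 cristae of 1 animal. The 3 Control rats received subcutaneous PBS, the vehicle, and the 3 STREP rats received 500 mg/kg of streptomycin, an aminoglycoside antibiotic toxic to hair cells (HCs), once a day for 6 weeks from postnatal day 21. Both groups held 2 males and 1 female, with replicate 3 the female in each, and the labels name 1 batch for all libraries. The titles of STREP replicates 1 and 2 share a number whose meaning is not given in the sources used here, and if these animals are related beyond their group the p-values are too small. The comparison asks which transcripts differ after this exposure. Library totals ran from 48568191 to 59906048 counts in Control and from 29333584 to 33744909 in STREP animals, so depth differed between the groups without overlap.

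Potassium channels set the resting potential of HCs and afferent neurons and shape how their voltage follows a stimulus. In the vestibular organs the type I HC, enclosed by a calyx-shaped afferent ending, is known for an unusually large potassium conductance that is already open at rest, and for passing potassium into the cleft below the calyx. Supporting cells, Schwann cells and dark cells carry other channels, among them the inward rectifiers that clear potassium or help to secrete it into endolymph. The tissue label was checked against marker genes. All 9 HC markers and all 7 supporting cell markers were read in these libraries, whereas 3 markers of muscle and bone summed to between 21 and 39 normalised counts (counts divided by the library's size factor) per library. Neuron, Schwann cell and dark cell markers were also present and are given beside the genes they touch. So were 4 melanocyte, 5 macrophage, 5 pericyte and endothelium and 2 blood markers, of which 0 were called, with median log2 fold changes of -1.01, 0.06, 0.20 and -0.40, so the samples held more than epithelium.

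Of the 89 channel genes, 9 had 0 counts in every library. These were Kcnh5, Kcnj1, Kcnj4, Kcnj5, Kcnj6, Kcnk3, Kcnk9, Kcnk18 and Kcnu1, and a count of 0 allows up to 3 counts per library, or between 1.84 and 4.49 normalised counts. Another 16 genes had so few counts, at most 13 in any library, that DESeq2's filter on the mean count over all animals left them without an adjusted p-value. The remaining 64 were tested. Levels were not compared between genes, because transcript lengths were not used here.

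DESeq2 called 4 channel genes lower and 2 higher in STREP animals, where a call required a fold change above 1.5 together with a Benjamini-Hochberg adjusted p below 0.05, adjusted across the whole table. The genes that fell were Kcna10, Kcnab1, Kcnh7 and Kcnmb2, and those that rose were Kcna6 and Kcns3. These are 6.25% and 3.12% of the 64 tested members, beside 1.37% and 1.87% of all 16250 genes tested. In both directions together 9.38% of the tested members were called, beside 3.24% of all genes. The median log2 fold change of the tested members was -0.08, with 34 below 0 and 30 above, and that of all tested genes was 0.0069. At an unadjusted p-value under 0.05 the count was 10 members, or 15.6%, against 12.2% of all genes. Values of the 3 STREP animals lay wholly outside the Control range for 13 members, 7 lower and 6 higher, which is 20.3% of the tested members. Over all genes such separation occurred in 17.8%, 8.63% lower and 9.12% higher. edgeR, which called 1.77% of all genes it tested, also called the 3 decreases of Kcna10, Kcnab1 and Kcnh7, but called neither Kcnmb2, Kcna6 nor Kcns3. With STREP replicates 1 and 2 summed into 1 sample, DESeq2 likewise called Kcna10, Kcnab1 (adjusted p = 0.0424) and Kcnh7, but not Kcnmb2 (0.101), Kcna6 (0.128) or Kcns3 (0.0566).

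**Figure D1:**
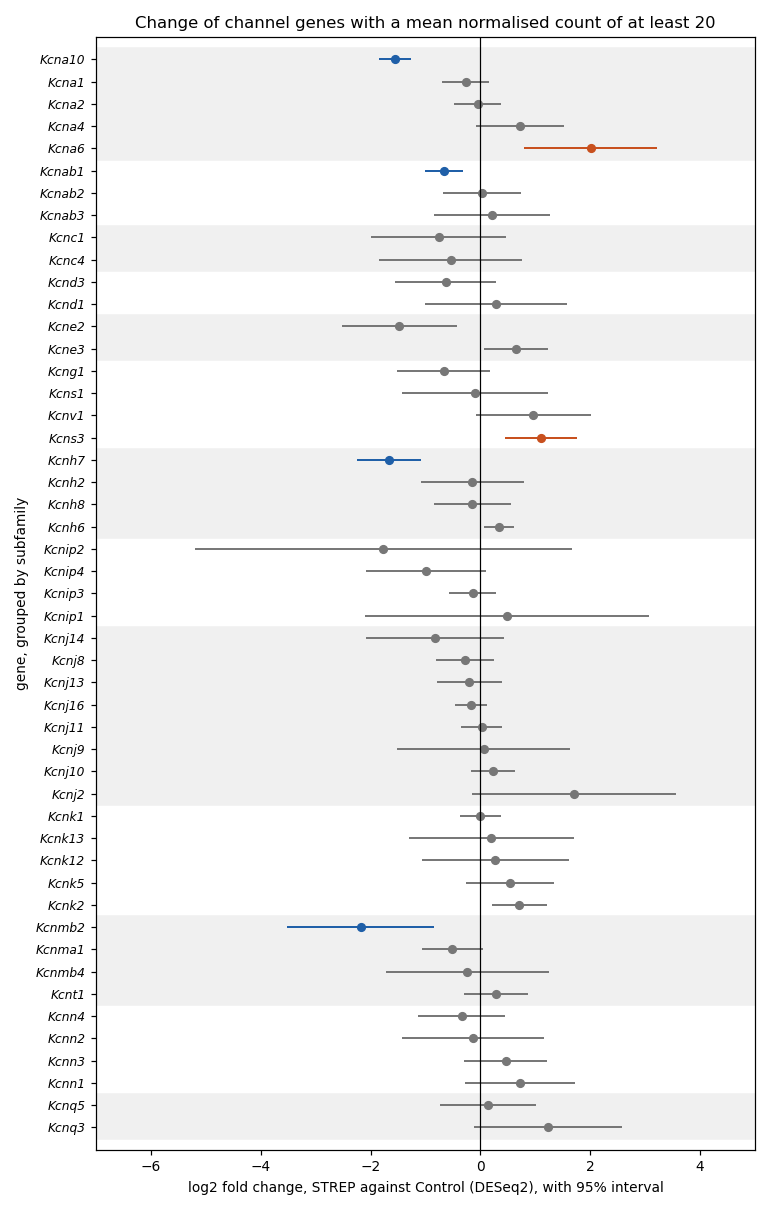
Log2 fold change of STREP against Control (horizontal axis) with its 95% interval for 49 tested channel genes whose normalised counts averaged 20 or more, listed by subfamily on the vertical axis. Blue marks genes called lower, orange genes called higher and grey genes not called, and 39 of the 49 intervals span 0.

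The Kv1 genes (Kcna) encode voltage-gated pore subunits that open at small depolarisations, and the group held both a decrease and an increase. Kcna10 (ENSRNOG00000050416) encodes the Kv1 subunit needed for the resting conductance of type I HCs. Its normalised counts were 13780.0, 17468 and 17544 in Control animals and 5636, 5191 and 5755 in STREP animals. All STREP values were far below the lowest Control value, and they lay closer together than the Control values. The log2 difference was -1.56 with an SE of 0.14, and DESeq2 gave an adjusted p of 1.84e-24.

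Kcna6 (ENSRNOG00000052486), a Kv1 subunit of neurons and their axons, differed in the other direction. It had 31.9, 8.5 and 20.6 normalised counts in Control animals and 70.6, 109 and 67.3 in STREP animals. The groups did not overlap, but the gene was read from few counts, and the log2 difference of 2.01 had an SE of 0.61 (DESeq2 adjusted p = 0.0314). Leaving out any single animal other than Control replicate 1 ended the call, with DESeq2 adjusted p-values up to 0.24, and so did sex as a covariate (DESeq2 adjusted p = 0.0544). Tubb3, a neuronal tubulin among the markers, also rose, from 124 ± 54.0 to 302 ± 70.7 normalised counts. However, 5 of the 7 afferent neuron markers were below 0, with a median log2 fold change of -0.14, 1 called higher and 0 lower. Together the 7 summed to between 4275 and 4708 in Control and between 4065 and 4390 in STREP animals. The part of afferent neurons in the Kcna6 value was not tested.

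Other Kv1 members were not called. Kcna1 and Kcna2, the subunits that sit beside the nodes of myelinated axons, had overlapping groups. Kcna1 averaged 2096 ± 223 normalised counts in Control and 1742 ± 499 in STREP, and Kcna2 averaged 3215 ± 669 and 3109 ± 731 (SD, n = 3). Their log2 fold changes were -0.27 (95% interval -0.68 to 0.15) and -0.05 (-0.46 to 0.36), so a change as large as that of Kcna10 lay outside both intervals. Kcna4, an inactivating Kv1 subunit, had 189, 91.8 and 80.8 normalised counts in Control and 182, 177 and 236 in STREP animals, and Control replicate 1 lay within the STREP range. Without Control replicate 1 Kcna4 was called higher, at 1.20 (DESeq2 adjusted p = 0.0357), and it was called in no other alternative fit. The other Kv1 genes, Kcna3, Kcna5 and Kcna7, were at or below 28.1 normalised counts in every library.

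Kcna10 and Kcna6 each lie in a run of neighbouring Kv1 genes in the RefSeq annotation of assembly GRCr8. Kcna10 follows Kcna3 and Kcna2 on chromosome 2, and Kcna6 lies beside Kcna5 and Kcna1 on chromosome 4, with no other protein-coding gene between members of a run. A ratio of 2 genes within an animal does not depend on how libraries are scaled, and the pairs below were chosen after the values had been seen. The ratio of Kcna10 to its neighbour Kcna2 was 4.50, 4.42 and 6.65 in Control and 1.44, 1.75 and 2.34 in STREP animals, without overlap. The log2 ratio of Kcna6 to Kcna1 averaged -6.88 ± 1.08 in the Control and -4.40 ± 0.63 in the STREP group (SD), again without overlap. The neighbours compared in each run therefore differed in their change. Kcna3 (-1.24, 95% interval -4.80 to 2.32) and Kcna5 (-0.66, -2.34 to 1.02) were not compared in this way. Among the 8 runs of channel genes found, the 2 that hold Kv1 genes were the ones with a called member.

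Kcnab1 (ENSRNOG00000056697) encodes a cytoplasmic beta subunit that binds Kv1 pores. It fell from 4489.8, 3584 and 3822 normalised counts in Control to 2277, 2279 and 2960.4 in STREP animals. The groups were separate, with the STREP female nearest to the Control range, and the log2 difference of -0.66 ± 0.17 was called (SE, DESeq2 adjusted p = 0.0036). Its call was lost without Control replicate 1 (-0.57, DESeq2 adjusted p = 0.0607) and without STREP replicate 1 (-0.60, adjusted p = 0.0576). The other beta subunits, Kcnab2 and Kcnab3, had log2 fold changes of 0.03 and 0.21 and overlapping groups.

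**Figure D2:**
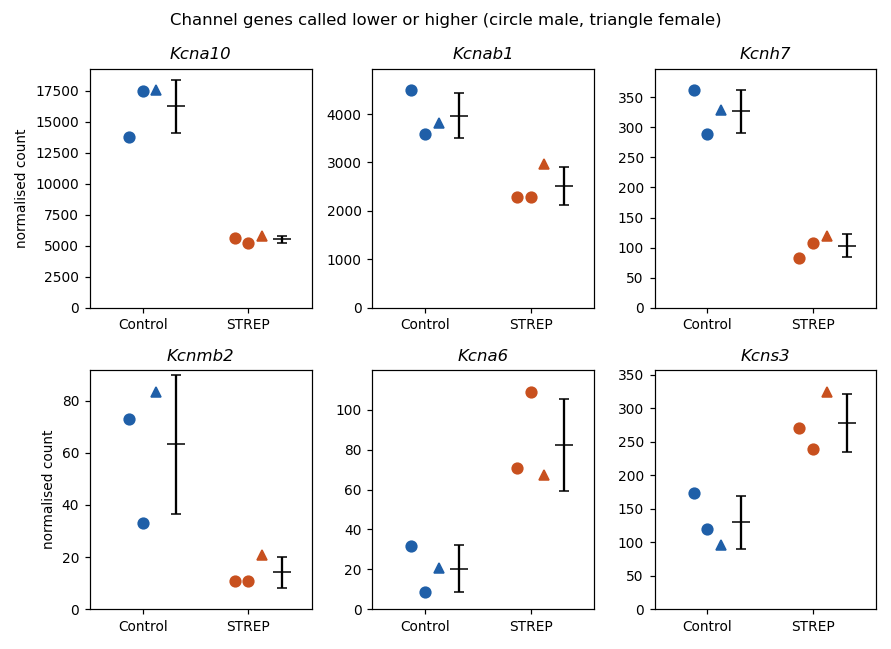
Normalised counts (vertical axes, from 0) of the 6 called channel genes in each animal, Control in blue and STREP in orange, circles for males and triangles for females, with the mean and SD of each group in black (n = 3). In every panel the 3 STREP values lie outside the Control range, below it for Kcna10, Kcnab1, Kcnh7 and Kcnmb2 and above it for Kcna6 and Kcns3.

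The ERG channels of the Kcnh family close slowly as the membrane returns to rest. Of the 4 tested members of the family 1 was called. Kcnh7 (ENSRNOG00000007528) had 361, 289 and 329 normalised counts in Control and 82.5, 108 and 119.7 in STREP animals. No STREP value came near the Control range, with a log2 difference of -1.66 and an SE of 0.29 (DESeq2 adjusted p = 1.14e-06). Its close relative Kcnh6 had 2760.4, 2550.3 and 2753 in Control and 3274, 3312 and 3639.5 in STREP animals. All 3 STREP values of Kcnh6 were above the Control range, by a small margin that was not called (0.34 ± 0.13, DESeq2 adjusted p = 0.139). The log2 ratio of Kcnh7 to Kcnh6 averaged -3.05 ± 0.11 in the Control and -5.06 ± 0.22 in the STREP group (SD), a difference of -2.01 with no overlap. Kcnh2, the ERG channel of heart muscle, had 108, 217 and 139 normalised counts in Control and 150.4, 61.5 and 208 in STREP animals, with overlapping groups. Kcnh8 had a log2 fold change of -0.15, and Kcnh1, Kcnh3 and Kcnh4 had too few counts to be tested.

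In bulk tissue, fewer HCs and less RNA per HC cannot be told apart. The 9 HC markers summed to between 59158 and 65950 normalised counts in Control and between 51738 and 62430 in STREP animals, with 0 of them at 0 counts. Of these 9, 8 were below 0, with a median log2 fold change of -0.29, 1 called lower (Cib2) and 1 called higher (Gfi1). Myo7a, the HC myosin, was lower by less than the fold threshold (-0.49, DESeq2 adjusted p = 0.0162), and so was Lhfpl5 (-0.45, adjusted p = 0.0161). Set against Myo7a, the log2 ratio of Kcna10 averaged 1.73 ± 0.34 in the Control and 0.67 ± 0.18 in the STREP group (SD), and that of Kcnh7 averaged -3.91 ± 0.12 and -5.09 ± 0.28. Neither ratio overlapped between groups. The ratio of Kcnab1 to Myo7a did overlap, at -0.31 ± 0.07 and -0.48 ± 0.29. Set against Otof, the calcium sensor of HC transmitter release, all 3 genes had lower ratios in every STREP animal, by -1.37 for Kcna10, -0.49 for Kcnab1 and -1.49 for Kcnh7. Otof itself changed less (-0.17) than Myo7a, so the reading for Kcnab1 depended on the marker used. Cib2 (-0.59) fell nearly as far as Kcnab1 (-0.66), and no HC marker other than Myo7a and Otof was used in a ratio. These ratios are a description, and the part of HC number in them was not tested.

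**Figure D3:**
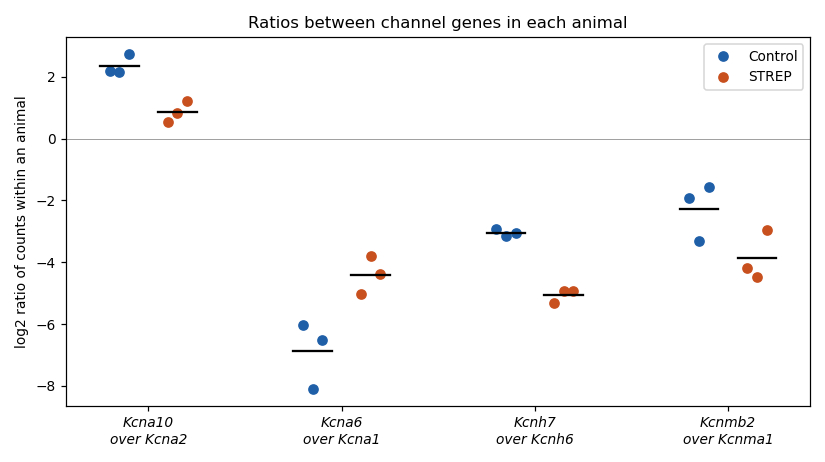
Log2 ratio of the counts of 2 channel genes within each animal (vertical axis) for 4 pairs, Control in blue and STREP in orange, with the group mean as a black line (n = 3). Ratios are separate between groups for 3 pairs, whereas for Kcnmb2 over Kcnma1 Control replicate 2 (-3.32) lies below 1 STREP animal (-2.96).

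BK channels, which open on calcium and voltage together and speed the repolarisation of HCs and neurons, are built from a pore and accessory beta subunits, and 1 beta subunit was called. Kcnmb2 (ENSRNOG00000010094), a BK beta subunit that makes the current inactivate, fell from 73.0, 33.2 and 83.4 normalised counts in Control to 10.7, 10.8 and 20.9 in STREP animals. This was a log2 difference of -2.17 ± 0.67 (SE, DESeq2 adjusted p = 0.0368). The groups did not overlap, but the call rests on few counts and was lost without Control replicate 1 or 3 and without STREP replicate 1 or 2 (DESeq2 adjusted p from 0.131 to 0.292). Kcnma1, the BK pore, had 274, 332 and 249 in Control and 196, 239.7 and 163 in STREP animals. Its groups did not overlap either, and the change was not called (-0.51 ± 0.28, DESeq2 adjusted p = 0.466). Kcnmb4, another beta subunit, overlapped between groups, with 32.3 ± 2.40 and 27.4 ± 18.3 normalised counts. The related sodium-activated channel Kcnt1 had 239.9 ± 15.7 and 292 ± 87.3 normalised counts and was not called.

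Silent Kv subunits form no channel of their own and modify the pores of other Kv subunits. Among these 10 genes 7 were tested, and Kcns3 (ENSRNOG00000004899) rose. It had 174, 119 and 95.5 normalised counts in Control and 270.3, 239.7 and 325 in STREP animals. Every STREP value was above every Control value, a log2 difference of 1.10 ± 0.32 (SE, DESeq2 adjusted p = 0.0233). The call was lost without Control replicate 2 or 3 and without STREP replicate 1 or 3 (DESeq2 adjusted p from 0.106 to 0.181). Kcnv1, another silent subunit, also had separate groups, at 66.9, 36.6 and 24.1 in Control and 74.6, 83.1 and 92.7 in STREP animals, but was not called (0.97 ± 0.52, DESeq2 adjusted p = 0.465). Kcng1 gave a log2 fold change of -0.67 and Kcns1 of -0.10, neither called. Kcnv2 was read in 1 library, Control replicate 2, at 31.5 normalised counts, and had 0 counts in the other 5, a gene named here after its values were seen.

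Sequence upstream of the 6 called genes is shown so that the regions in front of genes that moved in each direction can be compared. The sequences are from RefSeq on assembly GRCr8, cover the 250 bases before the annotated start, and are written 5′ to 3′ on the strand of the gene. All 89 genes matched RefSeq by symbol, and 61 had an entry with such sequence, Kcns3 with 2 of which the first is printed. Capitals mark the letters CAGCTG, an E-box of the kind that basic helix-loop-helix factors such as ATOH1 bind.
Kcna10 (chr2:197474464-197474713, plus strand): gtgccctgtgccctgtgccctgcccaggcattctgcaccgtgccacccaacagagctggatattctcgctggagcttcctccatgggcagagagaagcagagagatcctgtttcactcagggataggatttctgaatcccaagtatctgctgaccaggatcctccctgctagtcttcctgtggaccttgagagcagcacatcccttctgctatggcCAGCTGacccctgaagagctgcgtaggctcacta
Kcnab1 (chr2:151614301-151614550, plus strand): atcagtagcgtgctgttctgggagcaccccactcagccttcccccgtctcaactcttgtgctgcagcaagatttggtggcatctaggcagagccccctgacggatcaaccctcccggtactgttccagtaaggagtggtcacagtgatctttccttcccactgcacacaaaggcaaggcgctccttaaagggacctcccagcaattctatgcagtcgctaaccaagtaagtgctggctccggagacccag
Kcnh7 (chr3:68230672-68230921, minus strand): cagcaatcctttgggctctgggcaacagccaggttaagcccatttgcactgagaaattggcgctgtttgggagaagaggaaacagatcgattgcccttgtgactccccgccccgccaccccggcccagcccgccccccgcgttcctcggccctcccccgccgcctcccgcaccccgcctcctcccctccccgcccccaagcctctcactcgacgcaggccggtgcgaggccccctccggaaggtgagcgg
Kcnmb2 (chr2:116599049-116599298, plus strand): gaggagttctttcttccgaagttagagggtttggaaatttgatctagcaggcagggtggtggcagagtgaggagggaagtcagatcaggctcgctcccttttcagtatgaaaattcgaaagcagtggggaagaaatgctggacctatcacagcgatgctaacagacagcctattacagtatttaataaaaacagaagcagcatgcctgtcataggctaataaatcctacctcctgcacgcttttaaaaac
Kcna6 (chr4:161262353-161262602, minus strand): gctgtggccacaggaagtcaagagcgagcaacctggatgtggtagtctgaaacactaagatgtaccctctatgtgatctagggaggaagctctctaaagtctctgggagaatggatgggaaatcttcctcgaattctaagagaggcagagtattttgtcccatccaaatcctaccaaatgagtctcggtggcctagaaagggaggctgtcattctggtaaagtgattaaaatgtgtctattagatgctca
Kcns3 (chr6:39584106-39584355, minus strand): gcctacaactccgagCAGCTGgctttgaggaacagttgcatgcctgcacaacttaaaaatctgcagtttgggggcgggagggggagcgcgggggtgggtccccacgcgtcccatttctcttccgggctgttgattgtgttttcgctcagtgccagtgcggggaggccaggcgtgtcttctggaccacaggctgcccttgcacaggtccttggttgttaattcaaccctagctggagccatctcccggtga
CAGCTG, which reads the same on both strands, occurred once in front of Kcna10, beginning 34 bases before the start, and once in front of Kcns3, beginning 235 bases before it. It was found in 12% of the 33469 upstream sequences of this length. CAGATG, a second E-box, and TGATGNAA, the letters read by ATF4 together with C/EBP factors, were searched on both strands, differ from the first motif in their letters, and occurred in none of the 6 windows, beside 14% and 3.4% of all sequences. The letters alone do not say that a factor binds there.

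Among the accessory Kcne subunits, which attach to several Kv pores and change their opening, Kcne2 and Kcne3 had separate groups in opposite directions without being called. Kcne2 had 371, 387 and 269 normalised counts in Control and 126, 28.1 and 217 in STREP animals. The difference of -1.47 ± 0.52 on the log2 scale was not called (SE, DESeq2 adjusted p = 0.102). Kcne2 was called lower without STREP replicate 3, the female (-2.16, DESeq2 adjusted p = 0.00382), and among males alone (-2.31, adjusted p = 0.00438). No other omission of a single animal gave a call for Kcne2 (DESeq2 adjusted p from 0.0899 to 0.404). The 5 dark cell markers, which include Kcne1 and Kcnq1, summed to between 26578 and 27042 normalised counts in Control and between 15674 and 20797 in STREP animals. Of these 5, 0 were called and 4 were below 0, including Slc12a2 (-0.55, DESeq2 adjusted p = 0.0035, under the fold threshold), and the part of dark cells in the Kcne2 value was not tested. Kcne3 had 301, 239 and 173 in Control and 302, 382 and 437 in STREP animals, which left STREP replicate 1 and Control replicate 1 nearly equal (0.65 ± 0.29, DESeq2 adjusted p = 0.280).

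Kv4 channels carry the fast transient current, and their partners of the Kcnip family bind calcium. Kcnip4 had 66.3, 75.7 and 52.5 normalised counts in Control and 21.3, 29.2 and 47.9 in STREP animals, separate but not called (-0.99 ± 0.55, DESeq2 adjusted p = 0.483). Kcnip3, also known as a calcium-binding repressor of transcription, had 445 ± 32.8 and 403 ± 41.1 normalised counts, a log2 fold change of -0.14 with a 95% interval of -0.55 to 0.26. The Kv4 pore Kcnd3 had 76.7, 165 and 261 normalised counts in Control and 110.5, 87.5 and 126 in STREP animals, with the STREP values inside the Control range. Of the Kv3 genes, which serve fast firing, Kcnc4 gave 86.5 ± 58.8 and 59.4 ± 17.0 normalised counts in overlapping groups.

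Kv7 genes (Kcnq) encode slow channels that damp repeated firing. All 4 tested members had log2 fold changes above 0, from 0.14 to 2.75, and 0 were called. Kcnq3 had 30.7 ± 19.4 and 71.9 ± 35.2 normalised counts (1.23, 95% interval -0.11 to 2.56), and Kcnq5 101 ± 32.1 and 111 ± 41.9.

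The inward rectifiers (Kcnj) let potassium in more readily than out and buffer it in glia and supporting cells. Of 15 genes, 9 were tested and 0 were called, with a median log2 fold change of 0.02. Kcnj16, whose product pairs with that of Kcnj10, had 19535, 15031 and 17730.0 normalised counts in Control and 15328, 14769 and 16548 in STREP animals. These groups overlapped, and the 95% interval of -0.44 to 0.11 bounds its change more closely than that of most members. Kcnj10, the rectifier of glial and intermediate cells, averaged 1096 ± 162 and 1285 ± 223 (0.23 on the log2 scale, 95% interval -0.15 to 0.61). Kcnj13, known from transporting epithelia, had 538 ± 125 and 468 ± 155. The 6 Schwann cell markers, of which 1 was called lower (Prx) and 1 higher (Sox10), summed to between 247843 and 341039 normalised counts in Control and between 136370 and 279360 in STREP animals, and the 7 supporting cell markers, with 0 called, to between 138201 and 184922 and between 126544 and 240219. Their part in these values was not tested. Kcnj2, a strong rectifier, had 28.8, 3.40 and 6.02 in Control and 70.6, 19.4 and 35.9 in STREP animals, and was not called with all animals (1.70 ± 0.94). Without Control replicate 1 Kcnj2 was called higher (3.15, DESeq2 adjusted p = 0.043), and it was called in no other alternative fit.

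Kcnj11, named here after its values were seen as the pore of the channel that closes on ATP, had 852 ± 29.8 and 865 ± 143 normalised counts (0.02, 95% interval -0.34 to 0.38). Abcc8, a sulphonylurea receptor that completes it, fell from 439 ± 126 to 218 ± 28.8 (-1.01, DESeq2 adjusted p = 0.0128). Abcc9, the other such receptor, had 421 ± 76.7 and 563 ± 149 in overlapping groups and was not called (0.42, DESeq2 adjusted p = 0.573). Abcc8 is 1 of 15 partner genes listed for these channels, of which 14 were in the table, 12 were tested, 1 was called lower and 0 higher, with a median log2 fold change of -0.17. Within that list Dpp6 and Dpp10, partners of Kv4, had separate groups and log2 fold changes of -0.49 and -1.95 that were not called (DESeq2 adjusted p = 0.138 and 0.297). Dpp10 was close to the detection floor in STREP animals, at 5.33, 11.9 and 4.49 normalised counts, and its SE was 0.88. Of the 12 tested partners 7 were below 0. Adam22 (1.45) and Cntn2 (1.16) lay above 0 with overlapping groups and were not called.

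Two-pore channels (Kcnk) give the steady leak of potassium. Of 14 genes, 7 were tested, 6 of these lay above 0, and 0 were called. Kcnk2, a leak channel that responds to stretch and lipids, had 1052, 1021 and 1929 normalised counts in Control and 2322, 2338 and 1877 in STREP animals. Both male Control values were far below both male STREP values, while the Control female lay slightly above the STREP female. Kcnk2 was not called over all animals (0.71 ± 0.25, DESeq2 adjusted p = 0.0884), but was called higher among males alone (1.17, adjusted p = 1.46e-07), with sex as a covariate (0.77, adjusted p = 0.0319) and without Control replicate 3, the female (1.07, adjusted p = 9.45e-07). Kcnk2 was not called with any other single animal left out (DESeq2 adjusted p from 0.0836 to 0.441), nor by edgeR with its count filter (edgeR adjusted p = 0.23). The interaction of sex and group, fitted in DESeq2 over all genes, gave a female-minus-male difference of -1.21 for Kcnk2 (DESeq2 adjusted p = 0.0923), which did not pass. It rests on a single female in each group. Among the 44 channel genes with an adjusted interaction p-value DESeq2 gave 0 below 0.05, beside 34 of 13134 over all genes, and 5 before adjustment. edgeR gave 0 and 2. Kcnk1, another leak channel, had 1246 ± 189.8 and 1242 ± 142 normalised counts, with a 95% interval of -0.36 to 0.35 on the log2 scale. Kcnk10, named here after its values were seen, had separate groups at 0, 2.55 and 0 against 16.0, 6.48 and 2.99 normalised counts, close to the detection floor.

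**Figure D4:**
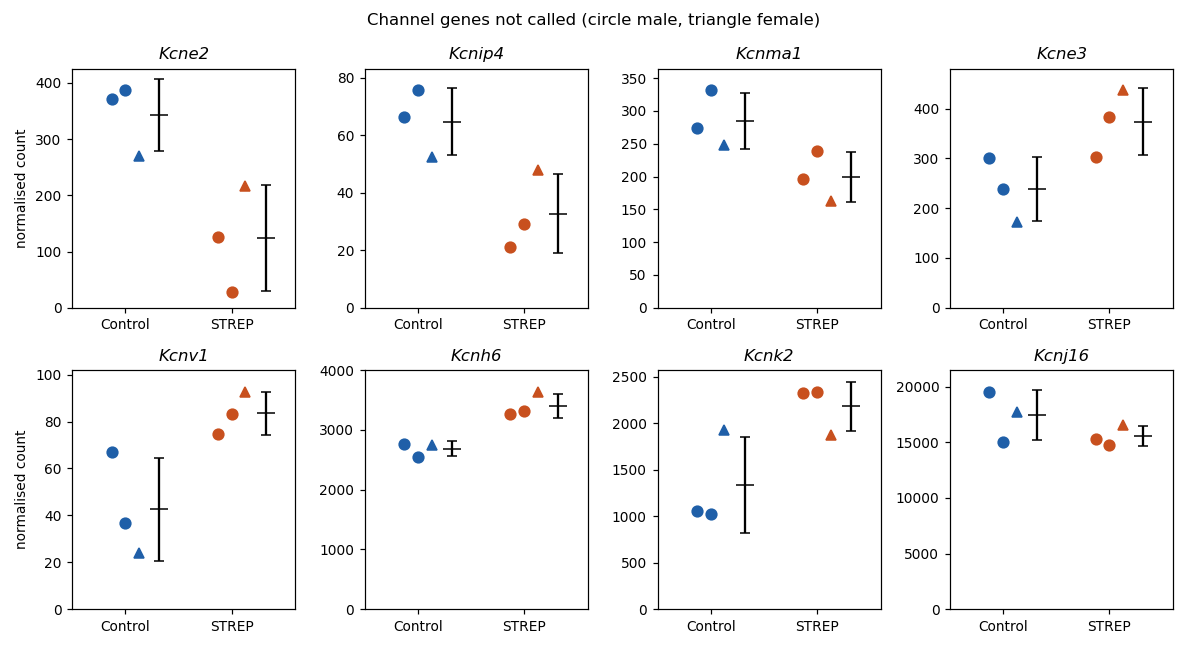
Normalised counts (vertical axes, from 0) of 8 channel genes that were not called, in each animal, Control in blue and STREP in orange, circles for males and triangles for females, with the mean and SD of each group in black (n = 3). The first 6 panels show genes without overlap between groups, Kcnk2 shows a difference among males (1052 and 1021 against 2322 and 2338) and not between the females, and Kcnj16 shows overlapping groups.

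Calcium-activated channels of small and intermediate conductance (Kcnn) were all tested and 0 were called. Kcnn2, which in HCs is coupled to the efferent acetylcholine receptor, had 38.7, 20.4 and 70.5 normalised counts in Control and 26.6, 42.1 and 49.4 in STREP animals, with overlapping groups. Kcnn3 had 202 ± 74.1 and 277 ± 107, and the log2 fold changes of the 4 genes ran from -0.34 to 0.72.

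Precision followed the counts. Among the 33 tested members with a mean of at least 100 normalised counts, standard errors of the log2 fold change ran from 0.13 to 0.67 and 4 members were called, or 12.1% beside 3.76% of the 12126 genes tested at that level. Among the 31 with lower means they ran from 0.52 to 3.01, and the 2 called members were Kcna6 and Kcnmb2. Control animals also differed among themselves. Control replicate 2 differed from both other Control animals by more than a factor of 2 for 8 of the 64 tested members above and 8 below, Control replicate 1 for 7 and 9, and Control replicate 3 for 1 and 2. Over all tested genes the shares were 2.94% and 4.09% for Control replicate 2, 2.92% and 3.27% for Control replicate 1, and 2.61% and 4.25% for Control replicate 3. The sets were not matched for counts, as 33 of the 64 members and 12126 of the 16250 genes averaged at least 100 normalised counts. Kcnk12, named here after its values were seen, was an example, with 242, 12.8 and 164 normalised counts in Control and 153, 194 and 160.1 in STREP animals.

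**Figure D5:**
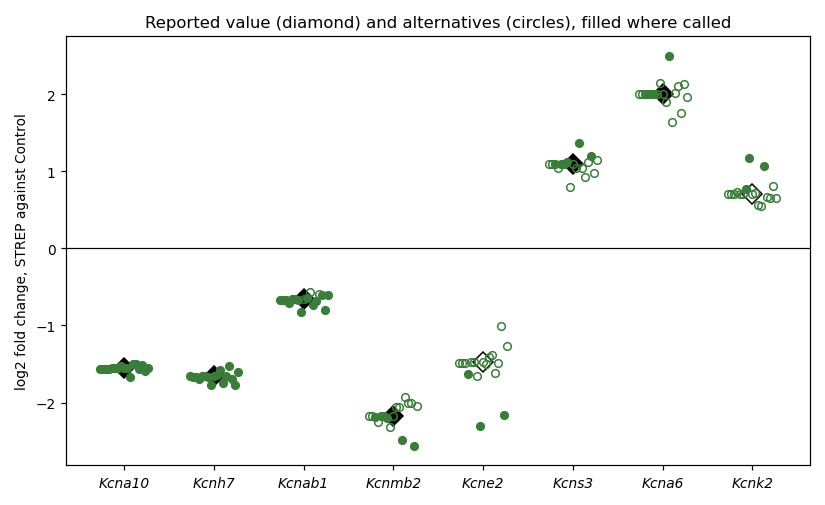
Log2 fold change of STREP against Control (vertical axis) of 8 channel genes as reported (diamonds) and under other tests, scalings, filters and omissions of 1 animal (circles), filled where the gene was called. Kcna10 and Kcnh7 were called in every fit shown, Kcnab1 in most, and no gene shown changed direction.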

How the data were processed

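RNA from the vestibular epithelium of 6 rats, 3 Control and 3 STREP, was sequenced from SMARTseq2 libraries. The authors mapped reads to the rat genome Rnor6.0 with STAR (2.5.3a), quantified genes with RSEM (1.3.0, per the submitters' notes) and deposited expected counts, the estimated reads per gene, without scaling. The deposited expected counts held 0 values that were not whole, so rounding changed nothing. RSEM divides reads among similar genes, so values of close paralogs are uncertain. Groups came from the treatment labels, and replicate numbers follow the order of deposition and pair no animals. The members, gene lists and rules were chosen with earlier results of these data known.

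All 32883 genes entered DESeq2 1.42.0 in R 4.3.3. The study used DESeq2 in another version and the same thresholds. Size factors came from the median of ratios, the model held group alone, and Wald p-values were adjusted by Benjamini-Hochberg over all genes after independent filtering. Intervals are 95% Wald intervals. Floors of 3 counts cover counting error only. An exact permutation test of 3 against 3 animals cannot give p below 0.1, so none is reported for single genes. Alternatives were edgeR 4.0.16 quasi-likelihood tests, other size factors, a filter of 10 counts in 3 libraries, a term for sex, a fit of males alone, other uses of the fold threshold, thinning to equal library totals, and leaving out each animal. Fits were tested on simulated data. Named genes were all called members, members with separate groups, a fold change over 1.5 and a mean of at least 10 normalised counts, the member with most counts in each subfamily, and a list of channels known from HCs, calyces or supporting cells. Any other member was named after its values were seen. The ratios between genes, the edgeR interaction test and the sum of STREP replicates 1 and 2 were likewise later additions. Values of 3 members are not reported here, although the counts over all members include them. Promoter sequences came from RefSeq (GRCr8), and no coordinates were converted.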

Additional observations from a re-analysis of the deposited data

How the results depend on the processing

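Kcna10 and Kcnh7 kept their direction and call in all 18 alternatives, counting each animal left out. The number of channel genes called lower was 2 with the fold change tested inside the Wald test and between 2 and 5 when 1 animal was left out, being 2 without Control replicate 1 or STREP replicate 1. The number called higher was 0 with edgeR, with and without a count filter (5 at an unadjusted p under 0.05 in each), 0 with library totals as size factors (3 unadjusted), 0 with the fold change tested inside the Wald test (1 unadjusted), 0 after thinning to the smallest total (7 unadjusted), 0 with STREP replicates 1 and 2 summed (5 unadjusted), an alternative chosen after seeing the data, and 1 among males alone. With sex as a covariate it stayed 2, with Kcnk2 in place of Kcna6. With 1 animal left out it ran from 0 to 4, being 0 without Control replicate 2, STREP replicate 1 or STREP replicate 3. Over all genes the main fit called 223 lower and 304 higher. These counts were 35 and 47 with the fold change tested inside the Wald test, and 139 and 170 with library totals. They were 126 and 138 with edgeR and its count filter, 135 and 160 without it, and 213 and 281 after thinning. Males alone gave 173 and 231, and the summed STREP replicates 234 and 246. Library totals called Kcne2 lower (-1.63) in place of Kcnmb2 (-2.25). The median log2 fold change was -0.003 among males alone and ran from -0.175 to -0.027 with 1 animal left out. The count of members without overlap ran from 11 to 13.

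Kcnk1 was above 0 with sex as a covariate (0.005), among males alone (0.106) and after thinning (0.018), and Kcnn2 among males alone (0.217) and after thinning (0.101). With 1 animal left out, direction was not stable for Kcnk1 (-0.102 to 0.121), Kcnn2 (-0.47 to 0.407), Kcna2 (-0.244 to 0.125), Kcnh2 (-0.548 to 0.21), Kcnj13 (-0.452 to 0.027), Kcnmb4 (-0.821 to 0.191) and Kcnq5 (-0.213 to 0.419), none of them called. The causes of these shifts were not tested. No paired analysis was possible because the labels give no replicate numbers, and no title number is shared between Control and STREP animals. Genes under about 100 normalised counts carry wide intervals, and STREP libraries were shallower.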
